A study of Mus musculus with 86 samples.

Results

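Haemoglobin RNA was measured in brain tissue of wild house mice through 5 of the 35275 genes of the count table. These were the adult alpha-globin genes Hba-a1 and Hba-a2, the adult beta-globin genes Hbb-bs and Hbb-bt, and Alas2, the form of 5-aminolevulinate synthase used by red blood cell precursors. They were chosen by symbol, as genes whose RNA in brain tissue is carried mainly by blood cells. The table came from 86 RNA-seq libraries of 29 free-living animals of both sexes that lived in a barn and were captured outside the breeding season. In the labels gregariousness is high or low, which the study calls large and small social network size, the number of partners an animal met in nest boxes per day. The prefrontal cortex and the hippocampus were sampled from 7 females with large networks, 7 females with small networks, 7 males with large networks and 8 males with small networks, and the hypothalamus from 7 animals of each of these groups. No animal had been given a treatment or carried a transgene, and the regions were punched from frozen brains of animals killed with CO2, with no perfusion of the blood vessels described. Age was estimated by the study and not recorded in the labels. The group mean it gives is lowest in males with small networks, and it reports no significant difference in age between the groups.

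Each haemoglobin molecule joins alpha and beta globin chains with haem, the iron-holding ring that binds oxygen. The globin genes are transcribed at very high rates in red blood cell precursors, and the RNA persists in reticulocytes, the young red cells that circulate in blood. Alas2 catalyses the first and rate-limiting step of haem synthesis in the erythroid lineage, whereas other tissues use Alas1. In whole brain tissue, globin RNA comes largely from the blood held in vessels, although neurons can transcribe globin genes at low levels. In such bulk samples, fewer cells of a type and less RNA per cell cannot be told apart.

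All 5 genes are protein coding and lie on 3 chromosomes of the GRCm38 build. The alpha genes are neighbours on chromosome 11, Hba-a1 (ENSMUSG00000069919) at chr11:32283511-32284465 and Hba-a2 (ENSMUSG00000069917) at chr11:32296489-32297298, both on the forward strand. The beta genes are neighbours on the reverse strand of chromosome 7, Hbb-bs (ENSMUSG00000052305) at chr7:103826534-103828096 and Hbb-bt (ENSMUSG00000073940) at chr7:103812524-103813996. Alas2 (ENSMUSG00000025270) is X-linked, at chrX:150547375-150570638 on the forward strand. Each globin gene has 3 coding exons, and within each pair the coding sequences were 99.77% identical in the reference genome, with 1 differing base among 426 in the alpha pair and 1 among 441 in the beta pair. Both differences fall in coding exon 3, printed here for all 4 genes because it holds the only coding base that separates each pair. The capital letter marks that base, which is C81T from Hba-a1 to Hba-a2 and C102T from Hbb-bs to Hbb-bt, counted from 1 at the 5′ end of the stretch shown.
Hba-a1 coding exon 3, chr11:32284263-32284388: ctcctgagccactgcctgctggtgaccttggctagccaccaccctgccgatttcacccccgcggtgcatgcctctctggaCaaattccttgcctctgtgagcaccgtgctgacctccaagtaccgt
Hba-a2 coding exon 3, chr11:32297080-32297205: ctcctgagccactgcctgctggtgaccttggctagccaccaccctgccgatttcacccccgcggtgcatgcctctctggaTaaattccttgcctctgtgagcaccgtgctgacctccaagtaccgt
Hbb-bs coding exon 3, chr7:103826668-103826793: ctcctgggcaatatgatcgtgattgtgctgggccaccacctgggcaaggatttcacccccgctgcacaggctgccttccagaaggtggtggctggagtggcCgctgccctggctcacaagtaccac
Hbb-bt coding exon 3, chr7:103812659-103812784: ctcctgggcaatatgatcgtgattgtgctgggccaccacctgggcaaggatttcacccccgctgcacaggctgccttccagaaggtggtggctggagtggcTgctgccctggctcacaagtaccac

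These near-copies limit what a count says about a single gene. Of the 150-base windows of the main transcript, the length of 1 read, 51.6% in Hba-a1, 34.3% in Hba-a2, 41.3% in Hbb-bs and 49.3% in Hbb-bt occurred in no other transcript. Every window of Alas2 was unique. How reads that match more than 1 gene were counted is not given in the sources used here. The split of reads within each globin pair is therefore uncertain. The summed count of a pair does not depend on that split, but it lacks the shared reads if these were left uncounted. Counting also may not have used the strand, and 311 exon bases of Alas2 overlap exons of Apex2 on the opposite strand, so reads there cannot be assigned to either gene with certainty.

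The members rose and fell together across animals, as described further on, and the RefSeq sequence of 250 bases before the transcript start (GRCm38.p6) is shown for the 4 genes whose counts could be compared. The gene bounds given above, from GENCODE, begin upstream of the RefSeq start in all 4 genes, so part of each window lies inside those bounds. Capitals mark matches on either strand to GATA motifs (AGATAA and TGATAA, each also with G as the last letter), to CCNCNCCC, the core bound by Klf factors, and to CCAAT, and matches on the forward strand to TATAA. Some matches overlap, as in the run of CCNCNCCC matches of Alas2.
Hba-a1, chr11:32283422-32283671, forward strand: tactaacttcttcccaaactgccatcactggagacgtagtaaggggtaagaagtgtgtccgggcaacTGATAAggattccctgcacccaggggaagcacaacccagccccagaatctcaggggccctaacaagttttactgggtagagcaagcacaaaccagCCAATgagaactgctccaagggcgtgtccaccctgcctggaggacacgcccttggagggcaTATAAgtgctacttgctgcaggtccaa
Hbb-bs, chr7:103827929-103828178, reverse strand: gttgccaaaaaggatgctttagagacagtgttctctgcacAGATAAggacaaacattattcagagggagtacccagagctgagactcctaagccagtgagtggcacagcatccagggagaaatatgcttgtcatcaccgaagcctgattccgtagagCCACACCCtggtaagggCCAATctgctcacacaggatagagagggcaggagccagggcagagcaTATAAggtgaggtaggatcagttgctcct
Hbb-bt, chr7:103813924-103814173, reverse strand: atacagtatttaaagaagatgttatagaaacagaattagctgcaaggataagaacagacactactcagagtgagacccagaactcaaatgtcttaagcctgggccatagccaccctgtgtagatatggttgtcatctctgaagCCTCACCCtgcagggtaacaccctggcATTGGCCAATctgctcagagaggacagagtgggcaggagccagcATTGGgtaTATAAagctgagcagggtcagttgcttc
Alas2, chrX:150547167-150547416, forward strand: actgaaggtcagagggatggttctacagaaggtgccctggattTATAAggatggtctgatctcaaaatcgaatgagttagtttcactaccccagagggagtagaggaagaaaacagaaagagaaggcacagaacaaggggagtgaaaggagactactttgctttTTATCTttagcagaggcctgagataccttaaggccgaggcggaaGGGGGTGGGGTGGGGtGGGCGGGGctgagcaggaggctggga

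The window before Hba-a2 is the same as that before Hba-a1 over 247 bases. A TATAA match was present before every member, against 16% of 32851 mouse promoters of the same length. A GATA match was found before Hba-a1, Hbb-bs and Alas2 and in 26.5% of all promoters. The CCNCNCCC core was found before both beta genes and 4 times before Alas2, and in 45.9% of all promoters. CCAAT was found before all globin genes and in 33.9% of all promoters. These matches describe letters in the windows and are not evidence of binding.

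Levels are given as CPM, a library's counts rescaled to a common total, with scaling by the TMM method over all 86 libraries. Alpha-globin RNA was counted almost wholly as Hba-a1. Hba-a1 had 619479 counts over all libraries, between 1602 and 37017 per library. Hba-a2 had 84, with 0 counts in 47 of the 86 libraries and no library above 14. Because most of the alpha sequence is shared, the count of Hba-a1 is treated here as the alpha-globin count, and that of Hba-a2 is not read as its expression. Hba-a2 did not pass the filter on low counts in any comparison, so 4 of the 5 members were tested.

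Hba-a1 in the prefrontal cortex lay between 97.53 and 785 CPM, with a median of 195 (n = 29). In the hippocampus it lay between 43.8 and 273 CPM with a median of 97.49 (n = 29), and in the hypothalamus between 39.1 and 332 CPM with a median of 105 (n = 28). Female 9, with a large network, had the highest level in every region, and in the cortex it stood well apart from the second highest animal, male 7 at 402 CPM.

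Hbb-bs, the beta-globin gene with more counts, lay between 60.6 and 414 CPM in the prefrontal cortex (median 118), between 32.5 and 230 in the hippocampus (median 80.7) and between 27.6 and 195 in the hypothalamus (median 70.6). Hbb-bt lay between 9.39 and 77.5 CPM in the cortex (median 21.3), between 5.91 and 48.2 in the hippocampus (median 16.5) and between 4.41 and 37.1 in the hypothalamus (median 11.95). Alas2 lay between 3.52 and 27.4 CPM in the cortex (median 7.73), between 2.93 and 17.9 in the hippocampus (median 6.75) and between 2.45 and 12.96 in the hypothalamus (median 5.07). All of these genes therefore spanned from 5.29-fold to 8.49-fold between the lowest and the highest animal of a region. Per kilobase of exon, the median levels in the cortex were 240 CPM for Hba-a1, 154 for Hbb-bs, 30.3 for Hbb-bt and 3.22 for Alas2, and this order was the same in the other regions. Haemoglobin counts of the 4 globin genes together made up between 0.00767% and 0.119% of a library's counts.

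**Figure D1:**
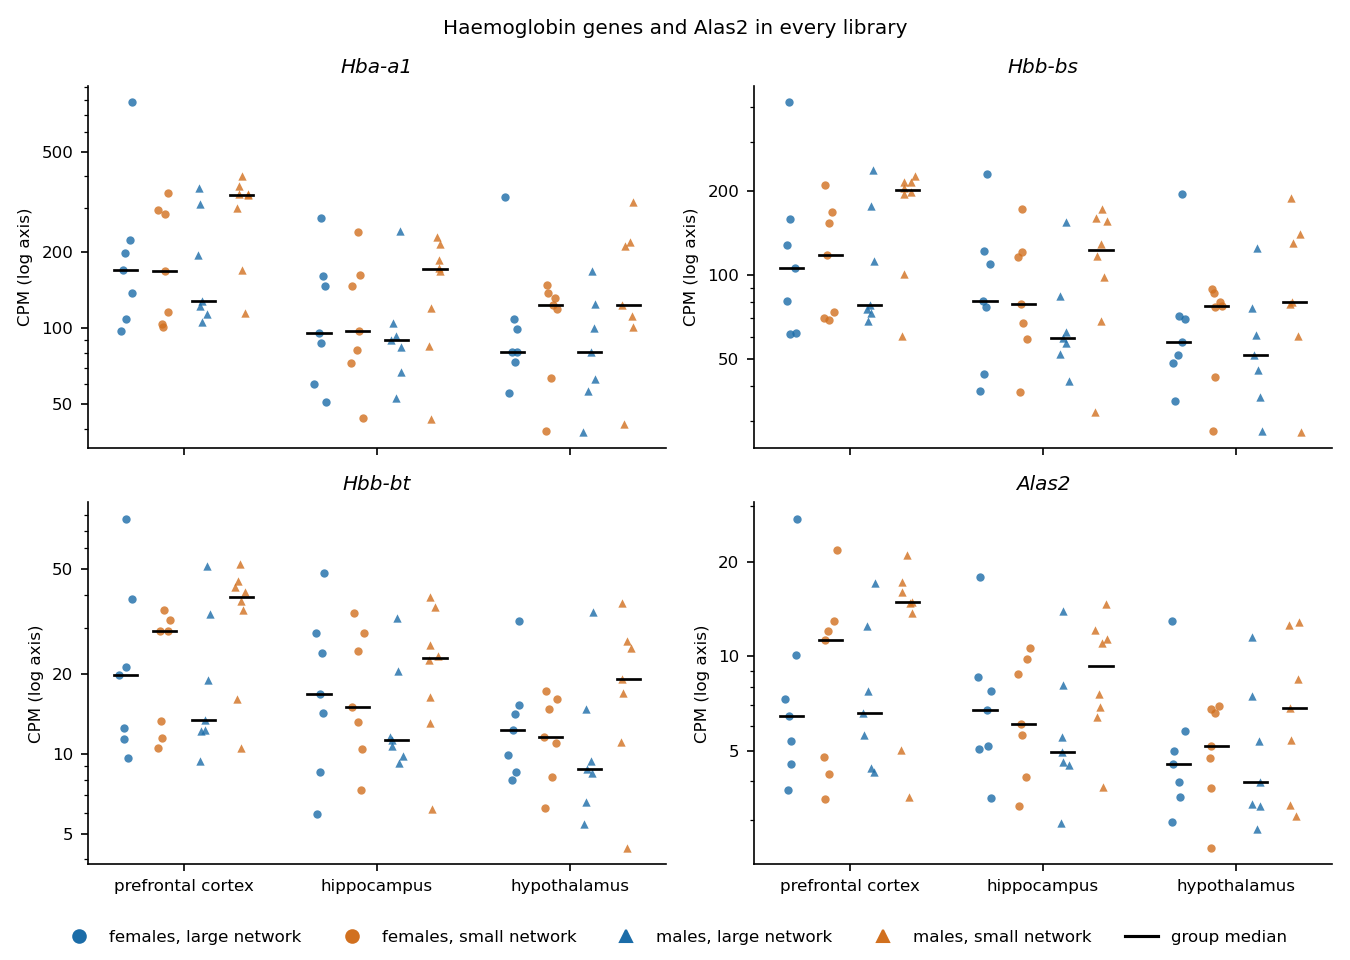
CPM of Hba-a1, Hbb-bs, Hbb-bt and Alas2 (vertical log axes) in each library, by region and by sex and network size; points are animals and black bars are group medians. The groups overlap in every panel, and the highest point of the prefrontal cortex is female 9 in all 4 genes.

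The spread between animals was far above that of most genes. After removal of the group means, the SD of the log2 CPM was 0.79 for Hba-a1, 0.76 for Hbb-bs, 0.89 for Hbb-bt and 0.91 for Alas2 in the prefrontal cortex, where the median over 15132 genes with a mean of at least 1 CPM was 0.18. In the hippocampus the SD of these members lay between 0.68 and 0.85 and in the hypothalamus between 0.70 and 0.81, against medians of 0.15 and 0.16. The members ranked between 186 and 302 of the 15132 genes in this measure. The share of the variance that lay between animals, over the 28 animals with 3 regions, was 0.801 for Hba-a1, 0.859 for Hbb-bs, 0.858 for Hbb-bt and 0.812 for Alas2. The median of all genes was 0.312, and the members ranked between 246 and 422. These are descriptions, given without a test.

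Animals with much haemoglobin RNA in 1 region had much in the others. For Hba-a1, Pearson's r between regions of the same animal was 0.789 for cortex and hippocampus, 0.794 for cortex and hypothalamus and 0.824 for hippocampus and hypothalamus, and Spearman's rho was 0.796, 0.728 and 0.776. For Hbb-bs the r values were 0.863, 0.848 and 0.869 with rho of 0.868, 0.860 and 0.857, and for Hbb-bt they were 0.873, 0.853 and 0.861 with rho of 0.820, 0.845 and 0.862. For Alas2 they were 0.798, 0.870 and 0.849 with rho of 0.779, 0.886 and 0.844. Each of these 12 relations had a two-sided permutation p of 1e-05 for r and for rho, the smallest that 100000 permutations can give, and 1.75e-05 after Benjamini-Hochberg adjustment over the 21 relations computed. Without the 2 animals farthest from the median on the first region's axis, r remained between 0.721 and 0.898. The libraries of 1 animal share the animal and its collection, so such a relation does not separate the amount of blood in the body from that left in the brain.

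The summed CPM of the globin genes shows the same animals at the ends of the range. Female 9 had 1276 CPM in the prefrontal cortex, 551 in the hippocampus and 559 in the hypothalamus, the highest value of each region. Male 6, with a small network, had 585, 442 and 543 CPM in the same order of regions. Female 25, with a small network, had 184, 89.7 and 73.2 CPM. Of the 28 animals with all regions, 5 were among the 10 highest in every region and 7 among the 10 lowest in every region. The first were males 6, 7 and 16 with small networks, male 28 with a large network and female 9 with a large network. The second were females 1 and 3 and males 20, 24 and 29, all with large networks, and female 25 and male 13 with small networks. Both sexes and both network sizes thus occur at both ends.

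**Figure D2:**
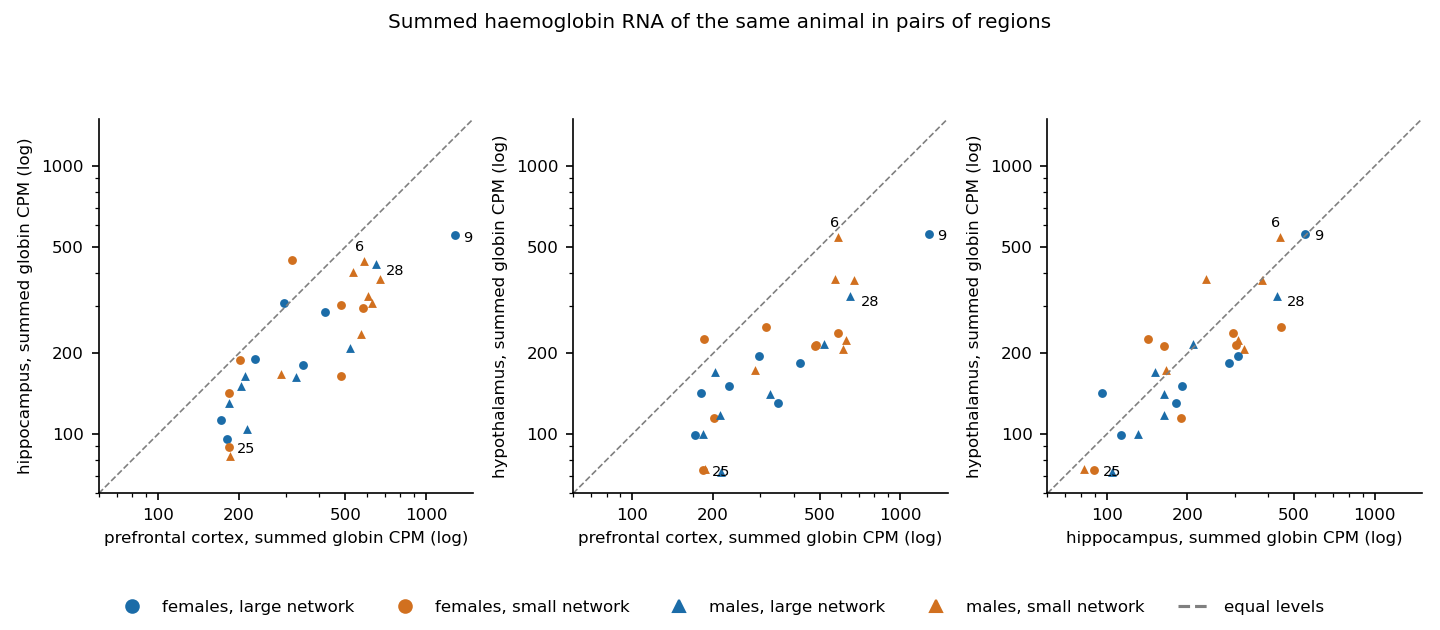
Summed CPM of the globin genes in 1 region against another for the same animal (log axes); each point is an animal, coloured by network size with the marker giving sex, and the dashed line marks equal levels. Points rise together in all 3 panels, most lie under the line in the panels with the prefrontal cortex, and female 9 is at the upper end of each.

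The members also moved with each other inside a region. Spearman's rho over animals was between 0.970 and 0.978 for Hba-a1 with Hbb-bs, between 0.936 and 0.965 for Hbb-bs with Hbb-bt, and between 0.904 and 0.946 for Hba-a1 with Alas2. Every 150-base window of Alas2 was unique, so their likeness does not rest on shared reads, whereas that within the beta pair may in part. Single genes outside the members were less like them. Over 15128 such genes, the mean over the regions of Spearman's rho with the summed globin CPM had a median of -0.0045 and a central 95% range from -0.281 to 0.275, and 12 genes were above 0.5. The most similar was Ube2l6, a ubiquitin-conjugating enzyme that also transfers the ubiquitin-like protein Isg15, with rho of 0.888 in the cortex, 0.756 in the hippocampus and 0.678 in the hypothalamus. Its CPM lay between 4.12 and 12.8 in the cortex, and it was highest in female 9 in every region. Next was Isg20, an exonuclease of the interferon response, with a mean rho of 0.647. Of the 10 most similar genes, 5 were encoded by mitochondrial DNA, led by mt-Nd1 with a mean rho of 0.596. Tent5c, a poly(A) polymerase that is also on the erythroid marker list, had 0.537. Pecam1, an adhesion protein of endothelium and platelets, had 0.534, and Fli1, a transcription factor of endothelium and megakaryocytes, had 0.510. For Alas2 the most similar genes were Ube2l6 (0.776), Isg20 (0.619), Fli1 (0.600), the endothelial receptor Adgrl4 (0.584) and mt-Nd1 (0.580).

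The summed CPM of some cell type lists also moved with the summed globin CPM. Its rho for the endothelial list was 0.583 in the cortex, 0.423 in the hippocampus and 0.330 in the hypothalamus. In the same order of regions it was 0.515, -0.0906 and 0.115 for mural cells and 0.530, 0.0749 and 0.256 for astrocytes. Microglia varied less by region than the endothelial list, with 0.444, 0.319 and 0.372. The erythroid list had 0.478, 0.108 and 0.219 and neutrophils 0.164, 0.503 and 0.261. The part of these cells in the members' spread was not tested.

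The share of a library's counts on mitochondrial genes moved with the haemoglobin level. Its rho with the summed globin CPM was 0.538 in the cortex, 0.557 in the hippocampus and 0.652 in the hypothalamus, over shares between 2.27% and 5.50%, and its part in the spread was not tested. The total count per library, between 33711824 and 81865801 with a median of 44778419, had rho of -0.358, 0.260 and 0.225 with the same sum. At these depths even the lowest library held 171 counts of Hbb-bt and 103 of Alas2.

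Some genes of the red cell lineage, named here after their values were seen, were near 0 beside the globin genes. Slc4a1, the anion exchanger of the red cell membrane, had a median of 0.400 CPM in the cortex, 0.364 in the hippocampus and 0.233 in the hypothalamus. Gfi1b and Rhag, a repressor and a membrane protein of erythroid cells, had no count in 55 and 60 libraries, and Icam4 had none in any of the 86. Of the 29 listed erythroid genes found in the table, 11 had a mean of at least 1 CPM, and their median rho with the summed globin CPM was 0.176. Ank1, Sptb and Tmcc2, which brain cells also transcribe, had mean levels of 101, 243 and 198 CPM and made up much of the list's summed level, which lay between 841 and 1358 CPM. Trim10 had a mean rho of 0.593 and Slc4a1 of 0.610 while below 1 CPM, where the ranks rest on few counts.

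The embryonic and fetal relatives of the members were at or near 0. Hbb-bh0 and Hbb-bh2 had no count in any library, which allows a level of up to 0.000773 CPM over all libraries, a limit that covers counting error only. Hbb-bh1 was at 0 in 84 libraries, Hba-x, the zeta-like chain of the yolk sac, in 78 and Hbb-y in 64. The globins of brain and muscle behaved unlike the members. Neuroglobin (Ngb) had a mean rho of -0.173 with the summed globin CPM and cytoglobin (Cygb) of -0.0049. Ngb also had the opposite order of regions, with medians of 4.86 CPM in the cortex, 12.7 in the hippocampus and 63.2 in the hypothalamus. Hbq1a, a further listed globin, was higher in the hippocampus than in the cortex (log2 fold change 0.63, SE 0.07, adjusted p = 3.89e-13, edgeR). In the hypothalamus relative to the cortex Hbq1a was at -0.08 (SE 0.07, adjusted p = 0.309, edgeR).

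Which brain region held more haemoglobin RNA was compared over all libraries, with sex and network size averaged. The prefrontal cortex had the highest levels. In the hypothalamus relative to the cortex, all 4 tested members fell and passed the test, where 35.3% of 19873 genes were called lower and 75.3% were called in either direction. The log2 fold changes were -0.97 for Hba-a1 (SE 0.21, adjusted p = 2.42e-05, edgeR's quasi-likelihood test with Benjamini-Hochberg adjustment), -0.88 for Hbb-bs (SE 0.20, adjusted p = 4.96e-05), -0.86 for Hbb-bt (SE 0.22, adjusted p = 0.000317) and -0.78 for Alas2 (SE 0.20, adjusted p = 0.000376). Their median was -0.87, against 0.03 over all genes tested.

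In the hippocampus relative to the cortex, 2 of the 4 tested members were called, both lower, against 30.5% of all genes called lower and 63.3% called in either direction. Hba-a1 fell by 0.88 on the log2 scale (SE 0.21, adjusted p = 0.000131, edgeR's quasi-likelihood test) and Hbb-bs fell by 0.55 (SE 0.20, adjusted p = 0.0104). Hbb-bt at -0.45 (SE 0.21, adjusted p = 0.0609) and Alas2 at -0.43 (SE 0.20, adjusted p = 0.0541) did not pass. In the fit with the animal as a replicate block, all 4 were called, with log2 fold changes of -0.87, -0.55, -0.43 and -0.34, SE between 0.072 and 0.090 and adjusted p of 3.37e-13, 1.06e-09, 3.52e-06 and 0.000309 for Hba-a1, Hbb-bs, Hbb-bt and Alas2, beside 33.3% of all genes called lower and 69.9% in either direction. The same fit called all 4 lower in the hypothalamus than in the cortex, where it called 37.4% of all genes lower and 79.8% in either direction.

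Hypothalamus and hippocampus were closer to each other. Between them 0 of the 4 tested members were called by edgeR, while it called 33.7% of all genes lower and 68.8% in either direction. At an unadjusted p under 0.05 edgeR had 0 of the 4, against 14116 of 19873 genes. DESeq2 called 0 of the members, beside 14805 of 30409 genes. The log2 fold changes were -0.09 for Hba-a1 (SE 0.21), -0.33 for Hbb-bs (SE 0.20), -0.41 for Hbb-bt (SE 0.22) and -0.35 for Alas2 (SE 0.20), with adjusted p between 0.0906 and 0.722 in edgeR's quasi-likelihood test. With the animal as a replicate block, 3 of the 4 were called lower in the hypothalamus, beside 36.6% of all genes called lower and 74.8% in either direction. These were Hbb-bs at -0.31 (SE 0.07, adjusted p = 0.000130), Hbb-bt at -0.38 (SE 0.08, adjusted p = 5.15e-05) and Alas2 at -0.36 (SE 0.09, adjusted p = 0.000235). Hba-a1 was at -0.08 (SE 0.09, adjusted p = 0.415). The 3 region comparisons share libraries and are not independent of each other.

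Within animals, Hba-a1 was lower in the hippocampus than in the cortex in 28 of 29 animals and lower in the hypothalamus than in the cortex in 27 of 28. The median ratio was 0.508 for the hippocampus and 0.492 for the hypothalamus. Alas2 was lower in the hypothalamus than in the cortex in 28 of 28 animals, with a median ratio of 0.657, but lower in the hippocampus in only 21 of 29, with a median ratio of 0.826. The summed globin CPM was highest in the cortex in 25 of the 28 animals with all regions, and the fold between an animal's highest and lowest region was between 1.32 and 2.97 with a median of 2.11. Each of these folds spans only the 3 libraries of an animal, so they cannot be set against the folds over all animals of a region.

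Among lists of other blood and vessel genes, the neutrophil genes called were lower than in the cortex. So were the endothelial genes called, but for 1 in the hippocampus. Erythroid and platelet genes were called in both directions. The part of these lists in the members' difference was not tested. Their counts stand beside 35.3% of all genes called lower and 75.3% in either direction for hypothalamus against cortex, and 30.5% and 63.3% for hippocampus against cortex. Of 21 erythroid genes tested, 8 were higher and 8 lower in the hypothalamus relative to the cortex (median log2 fold change -0.17), and 4 were higher and 6 lower in the hippocampus (median -0.07). Of 14 lymphocyte and monocyte genes, 0 were higher and 1 lower in the hypothalamus, and 1 higher and 1 lower in the hippocampus. In the hypothalamus relative to the cortex, 10 of 16 endothelial genes were called lower and 0 higher (median log2 fold change -0.28), with a summed level between 426 and 590 CPM against 500 to 724 in the cortex. In the hippocampus 11 of the 16 were lower and 1 was higher (median -0.16), with a sum between 436 and 601 CPM. Of the 12 neutrophil genes 7 were lower in hypothalamus than in cortex and 3 were lower in hippocampus than in cortex, while 0 were higher in either. Their sum lay between 10.98 and 122 CPM in the cortex, 9.52 and 112 in the hippocampus and 8.84 and 83.1 in the hypothalamus. Of 11 platelet genes tested 2 were higher and 6 lower in the hypothalamus and 1 higher and 4 lower in the hippocampus. Among the lower ones was Nrgn, at -3.66 in the hypothalamus (SE 0.07) and -1.09 in the hippocampus (SE 0.07). Whether its RNA came from platelets was not tested. Of 10 mural cell genes 4 were higher and 3 lower in the hypothalamus and 0 higher and 4 lower in the hippocampus. The defining neutrophil gene S100a8 was at 0 in no library, and Elane in 31. The 8 other haem synthesis genes were mixed, with 2 higher and 3 lower in the hypothalamus (median -0.05) and 2 higher and 2 lower in the hippocampus (median 0.03). Among them Alas1, the synthase of non-erythroid cells, fell by 0.47 in the hypothalamus (SE 0.03, adjusted p = 7.32e-25, edgeR) and by 0.21 in the hippocampus (SE 0.03, adjusted p = 2.84e-09, edgeR). Of 14 genes that handle haem and iron, 4 were higher and 5 lower in the hypothalamus and 3 higher and 4 lower in the hippocampus, with medians of -0.05 and -0.02. Fth1, the ferritin heavy chain, fell by 0.41 in the hypothalamus (SE 0.03, adjusted p = 4.28e-19, edgeR).

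The balance of alpha to beta globin counts was lower in the hippocampus than in either other region in nearly every animal. The CPM of Hba-a1 divided by that of both beta genes was 1.39 ± 0.126 in the cortex (mean ± SD, n = 29), 1.10 ± 0.103 in the hippocampus (n = 29), and 1.297 ± 0.117 in the hypothalamus (n = 28). It was lower in the hippocampus than in the cortex in 27 of 29 animals, all but female 5 and male 28, and higher in the hypothalamus than in the hippocampus in 26 of 28 animals. Between hypothalamus and cortex it was lower in the hypothalamus in 23 of 28 animals and higher in 5. The ratio spanned from 0.928 to 1.62 over all libraries, a range far narrower than that of the levels. Alas2 relative to the beta genes had medians of 0.0574, 0.0662 and 0.0654 in cortex, hippocampus and hypothalamus. Relative to Hba-a1, Alas2 was higher in the hippocampus than in the cortex in 27 of 29 animals. The ratios use counts that depend on whether and how shared reads were counted within each globin pair, and they are described without a test.

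**Figure D3:**
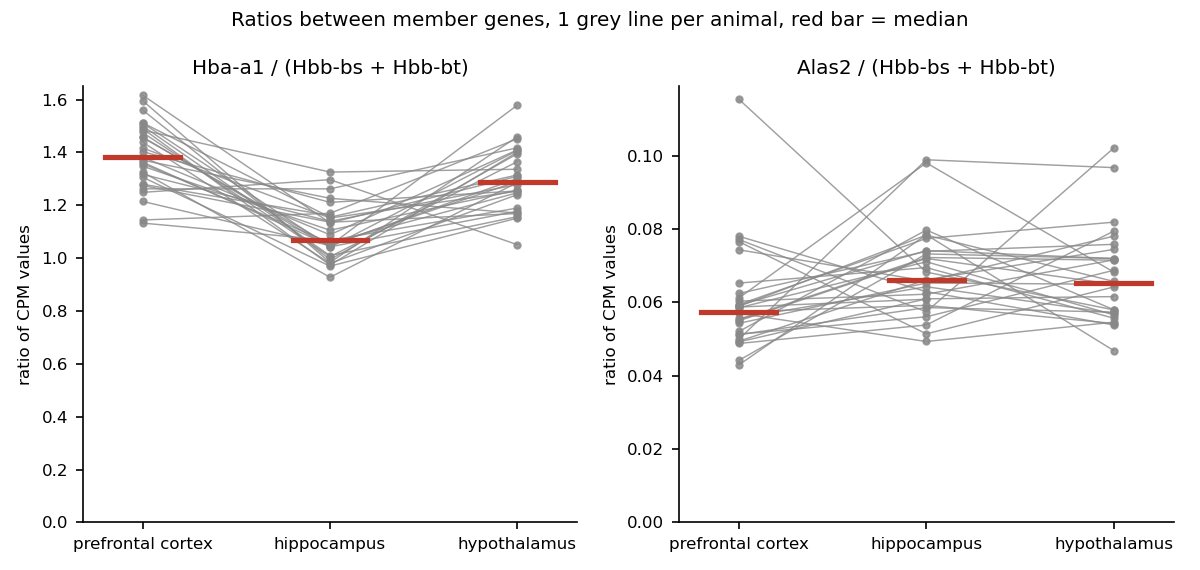
Ratio of the CPM of Hba-a1 (left) and of Alas2 (right) to the summed CPM of Hbb-bs and Hbb-bt, on linear axes from 0, in the 3 regions; grey lines join the regions of an animal and red bars are medians. The left panel dips in the hippocampus, where the median is 1.07 against 1.38 in the cortex and 1.29 in the hypothalamus.

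The ratio of the beta-globin genes was next asked of each animal. House mice carry several beta-globin haplotypes, and the reference genome holds the one named single, whose adult genes are Hbb-bs and Hbb-bt. Reads of wild animals with another haplotype would be counted on these same genes, and haplotypes were not determined here. Of the counts on both genes, Hbb-bt took 15.5% ± 2.17 in the prefrontal cortex (mean ± SD, n = 29), 16.6% ± 1.83 in the hippocampus (n = 29) and 16.1% ± 1.996 in the hypothalamus (n = 28). The lowest library was the cortex of male 20 with 12.1% (95% Wilson interval 10.997% to 13.3%), and the highest the hypothalamus of male 28 with 21.6% (20.6% to 22.6%). With 1240 to 23192 beta-globin counts per library, counting error alone would give an SD of 0.477, 0.617 and 0.657 percentage points in the 3 regions. The Wilson intervals of 20 of 29, 16 of 29 and 14 of 28 libraries did not contain the pooled share of their region, which was 15.9%, 16.8% and 16.2%. Intervals cover counting error only.

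The share of Hbb-bt was only weakly related between regions of an animal, and no relation passed the test. Between regions of the same animal its r was 0.263 (permutation p = 0.167) for cortex and hippocampus, 0.196 (p = 0.317) for cortex and hypothalamus and 0.121 (p = 0.540) for hippocampus and hypothalamus. Spearman's rho was 0.273, 0.211 and 0.190 (permutation p = 0.149, 0.278 and 0.329), and the adjusted p over the 21 relations lay between 0.216 and 0.597. Without the 2 farthest animals r was 0.142, 0.213 and 0.0983. Within an animal the highest and lowest shares of its regions differed by a median of 3.28 percentage points. The gap was smallest in male 29, at 15.1%, 15.4% and 15.6% in cortex, hippocampus and hypothalamus, and largest in female 21, at 12.2%, 19.2% and 16.3%. Hba-a1 took at least 99.86% of the alpha-globin counts in every library. Its share had r of 0.482 (permutation p = 0.00981, adjusted p = 0.0147), 0.176 (p = 0.374) and -0.0574 (p = 0.774) over the same pairs of regions, with rho of 0.402, -0.0433 and -0.0155 (permutation p = 0.0314, 0.826 and 0.938). The log2 CPM of Hba-a2 had r of 0.601 (permutation p = 0.00161, adjusted p = 0.0026), 0.307 (p = 0.109) and -0.0557 (p = 0.778), with rho of 0.271, 0.0908 and -0.0071 (permutation p = 0.155, 0.643 and 0.972). Both measures rest on the 84 counts of Hba-a2.

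Network size was compared for the mean share per animal with a two-sided exact permutation test. In females the share of Hbb-bt was 15.9% ± 1.05 with small networks (SD, n = 7) and 16.2% ± 1.58 with large networks (n = 7), a difference of -0.314 percentage points (exact permutation p = 0.674). In males it was 16.2% ± 1.36 with small networks (n = 8) and 15.9% ± 1.72 with large networks (n = 7), a difference of 0.225 points (exact permutation p = 0.781). The groups overlapped widely in both sexes.

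**Figure D4:**
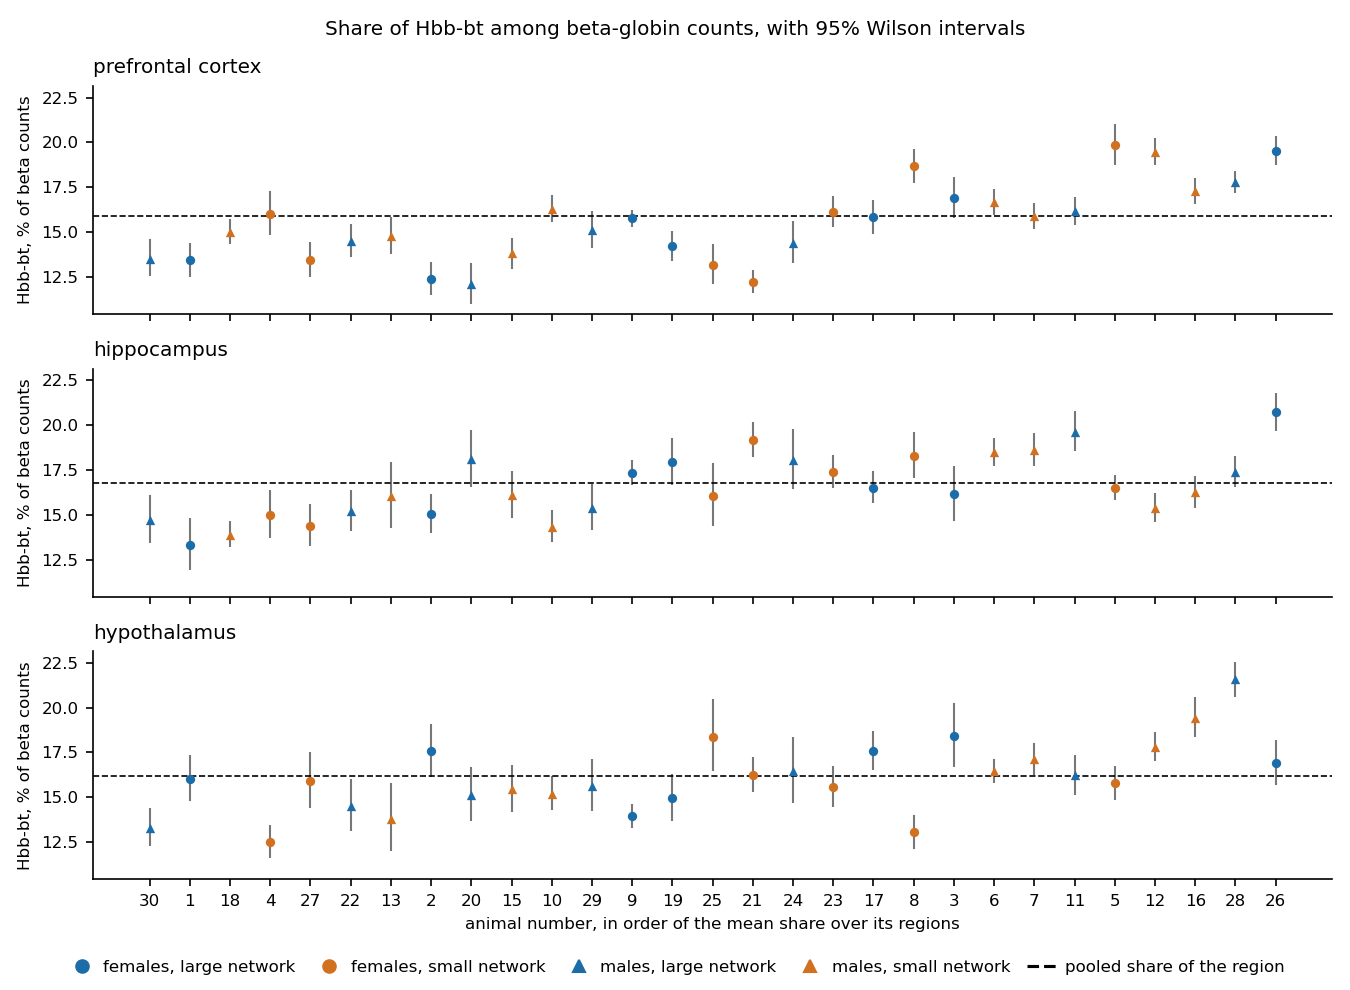
Percentage of beta-globin counts on Hbb-bt in each library (vertical axis, which does not start at 0) with 95% Wilson intervals, by animal, with 1 panel per region and the animals in the same order; dashed lines are the pooled shares. Many intervals miss the line, and an animal high in 1 panel is often near the line in another.

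The study's own contrast was between small and large social networks within each sex and region. No haemoglobin gene passed it. In females, 0 of 4 tested members were called by edgeR in each region, where 0.0113% of genes were called in the prefrontal cortex, 0% in the hippocampus and 0.00552% in the hypothalamus. None had an unadjusted p under 0.05, against 9.59%, 12.2% and 7.39% of all genes. DESeq2 called 0 of 5, beside 74 of 27741, 95 of 27514 and 43 of 28004 genes in the same regions. It gave Hba-a2 no adjusted p in females. Log2 fold changes of females with small relative to large networks lay between -0.29 and 0.12, with adjusted p between 0.793 and 0.969 in edgeR's quasi-likelihood test.

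Hba-a1 in the cortex of females with large networks lay between 97.53 and 785 CPM with a median of 170, and in females with small networks between 101 and 344 with a median of 168. The log2 fold change was -0.29 (SE 0.44, adjusted p = 0.793, edgeR). Female 9 decided its sign, since without her it was 0.37 (SE 0.31, adjusted p = 0.645). Without her, Hbb-bs, Hbb-bt and Hba-a1 were above 0 in females of every region, between 0.10 and 0.39, and Alas2 was at 0.69 in the cortex, 0.16 in the hippocampus and 0.28 in the hypothalamus.

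In males, the members were higher with small networks in all regions but did not pass the test. edgeR called 0 of 4 in each region, beside 0% of all genes in each. DESeq2 called 0 of 5, beside 2 of 27831, 0 of 27709 and 1 of 27931 genes in cortex, hippocampus and hypothalamus. At an unadjusted p under 0.05, edgeR had 1 of 4 members in each region, against 2.52% of all genes in the cortex, 3.88% in the hippocampus and 2.9% in the hypothalamus. DESeq2 had 0, 0 and 1 of 5, against 697 of 27831, 894 of 27709 and 769 of 27931 genes. In the cortex of males Hba-a1 lay between 106 and 360 CPM with large networks (median 129, n = 7) and between 115 and 402 with small networks (median 339, n = 8). Its log2 fold change was 0.63 (SE 0.30, unadjusted p = 0.0490, adjusted p = 0.999994, edgeR), and the exact permutation test of the mean log2 CPM gave p = 0.0783 for 8 against 7 animals. 2 of the 8 males with small networks were above every male with a large network, and the groups overlapped.

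Hbb-bs in the hippocampus of males had a median of 59.7 CPM with large and 123 CPM with small networks. Its log2 fold change was 0.68 (SE 0.31, unadjusted p = 0.0441, adjusted p = 0.999, edgeR; exact permutation p = 0.110). In the hypothalamus of males Hba-a1 had medians of 80.8 and 124 CPM, with a log2 fold change of 0.84 (SE 0.38, unadjusted p = 0.0425, adjusted p = 0.9996, edgeR; exact permutation p = 0.127). Over the 4 members and 3 regions in males the log2 fold changes lay between 0.47 and 0.84 and stayed above 0 when any 1 animal was left out, between 0.30 and 1.19. The regions come from the same males, so the repeated direction is not independent evidence. Hbb-bt and Alas2 in the cortex were at 0.68 (SE 0.37) and 0.66 (SE 0.36). The small-network group was not uniform, since male 13 had the lowest Hba-a1 of that group in every region, at 115 CPM in the cortex, 43.8 in the hippocampus and 41.9 in the hypothalamus.

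**Figure D5:**
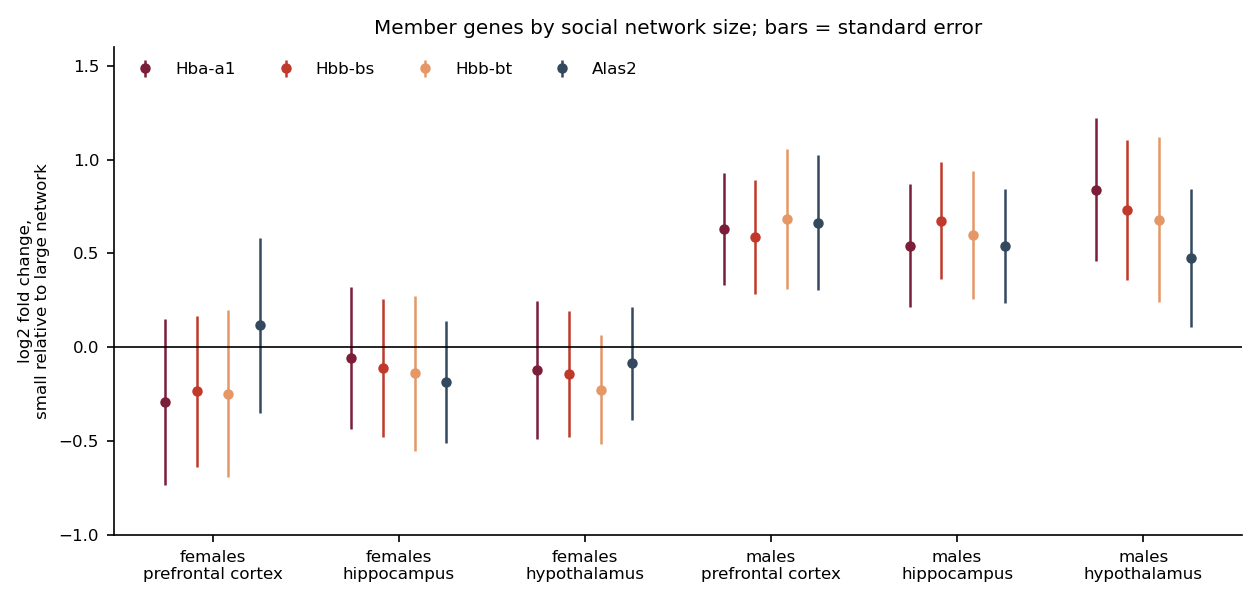
Log2 fold change between network sizes, small minus large (vertical axis), for the 4 tested members in each sex and region; points are edgeR estimates and bars are 1 standard error. All estimates of males lie between 0.47 and 0.84 and those of females between -0.29 and 0.12, and none passed the adjusted threshold.

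The difference between the sexes in this contrast was tested in its own right. The female minus the male log2 fold change lay between -0.96 and -0.54 over the members and regions, and 0 of 4 members were called by edgeR in any region (adjusted p between 0.738 and 0.997), beside 0% of all genes. None had an unadjusted p under 0.05 in edgeR, against 769 of 18452, 1371 of 18598 and 1152 of 18753 genes in cortex, hippocampus and hypothalamus. DESeq2 called 0 of 5, beside 30 of 28838, 1 of 28591 and 0 of 28997 genes, and gave Hba-a2 no adjusted p in the cortex. Males and females averaged over network size differed by between -0.10 and 0.27 on the log2 scale. 0 of 4 members were called by edgeR in any region, while it called 0.0976%, 0.102% and 0.117% of all genes in cortex, hippocampus and hypothalamus. None had an unadjusted p under 0.05 there, against 919 of 18452, 1114 of 18598 and 1274 of 18753 genes. DESeq2 called 0 of 5, beside 29 of 28838, 31 of 28591 and 40 of 28997 genes, and gave Hba-a2 no adjusted p in the hippocampus. Alas2, though X-linked, was at 0.12 (SE 0.31) in the cortex, 0.06 (SE 0.24) in the hippocampus and 0.25 (SE 0.25) in the hypothalamus.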

How the data were processed

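RNA of 3 brain regions of 29 wild house mice was sequenced by the authors as paired-end reads of NEBNext Ultra libraries, 1 library per animal and region. The authors mapped the reads with STAR to GRCm38 (mm10 in the submitters' processing notes, which also name CASAVA 1.8.2 and DESeq2) and counted them per gene with HTSeq. The deposited values are raw counts for 35275 genes, without normalization. The annotation release, the strand setting and the treatment of reads that match several genes are not given in the sources used here. Symbols and positions came from GENCODE vM21, in which 34490 genes were found. Total counts per library were 33711824 to 81865801, so intervals and limits cover counting error only.

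Sex, network size and region were read from the labels. The number in each title is the animal's number in the study's text and is shared by its regions, which pairs the libraries of an animal. The correlations between regions in the report rest on this pairing and are not a separate check of it. Animals are the replicates, and no 2 libraries held identical counts.

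Comparisons were fitted with R 4.3.3 and edgeR 4.0.16. filterByExpr (minimum count 10, total 15, proportion 0.7) removed genes with low counts. Libraries were scaled by TMM and tested by the quasi-likelihood test, with Benjamini-Hochberg adjustment over all genes and a threshold of 0.05. Network size was compared within each sex and region, sexes within a region, and regions over all 86 libraries without a block. Alternatives were DESeq2 size factors, all genes with at least 1 count, the DESeq2 1.42.0 Wald test, all groups of a region in 1 fit, each animal left out, exact permutation tests, an animal block and a prior count of 0.5. Log2 CPM used a prior count of 2. With 7 against 7 animals the smallest exact p is 0.000583. Scripts were tested on simulated data. Python 3.11.15, scipy 1.17.1 and matplotlib 3.10.9 were used.

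The members and the marker lists were chosen with earlier results of these data known. Genes outside the members were named by rule. From a list these were the genes of highest mean CPM (at most 4), by likeness the 10 genes with the highest mean rho to the summed globin CPM and the 5 for Alas2, and for the share of Hbb-bt the 10 with the highest absolute rho. The red cell, neutrophil and embryonic globin genes named singly, Alas1 apart, were chosen after their values were seen. Promoter sequences came from RefSeq, found for all 5 members.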

Additional observations from a re-analysis of the deposited data

Results flagged for a closer look

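Among 60 groups of 7 or 8 animals tested for a value far from the rest by Dixon's criterion, 4 values stood apart, where chance gives about 1 in 20 groups. Hba-a1 in the prefrontal cortex of females with large networks had a log2 CPM of 9.62 (785 CPM) in female 9, beside 223 CPM in the next animal. In the hypothalamus of the same group, female 9 had a log2 CPM of 8.37 (332 CPM) for Hba-a1, beside 109 CPM in the next animal, and of 7.61 (195 CPM) for Hbb-bs, beside 71.5 CPM. All 3 values belong to 1 animal, so they are not separate events. In cortex, hippocampus and hypothalamus her ranks were 20, 19 and 26 for the erythroid sum, 12, 14 and 21 for the endothelial sum, 18, 14 and 12 for the neutrophil sum and 8, 9 and 2 for the lymphocyte and monocyte sum, of 29, 29 and 28 animals. Her choroid plexus sum ranked 21, 4 and 20.

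The share of Hbb-bt in the hypothalamus of male 28, with a large network, was 21.6%, beside 16.4% in the next of the 7 males of that group. In the cortex and hippocampus of the same male it was 17.8% and 17.4%.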

How the results depend on the processing

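With the replicate block of the animal, 4 members in place of 2 were called lower in the hippocampus than in the cortex, and 3 in place of 0 lower in the hypothalamus than in the hippocampus; the block changed no other call. For the share of Hbb-bt, the difference between small and large networks changed sign in the cortex of females alone (0.220 points) and in the hippocampus of males alone (-0.785 points), with exact permutation p of 0.883 and 0.401. In females, leaving out single animals turned the sign of log2 fold changes far from any threshold, with ranges in cortex, hippocampus and hypothalamus of -0.47 to 0.37, -0.32 to 0.26 and -0.24 to 0.39 for Hba-a1, -0.41 to 0.31, -0.33 to 0.24 and -0.26 to 0.30 for Hbb-bs, -0.39 to 0.29, -0.34 to 0.21 and -0.34 to 0.10 for Hbb-bt, and -0.19 to 0.69, -0.32 to 0.16 and -0.19 to 0.28 for Alas2. The largest turns came without female 9, or without female 8 for Alas2 in the cortex. Smaller turns gave -0.022 and -0.0016 for Alas2 in the cortex (without females 1 and 3), 0.031, 0.015, 0.012 and 0.083 for Hba-a1 in the hippocampus (without females 4, 8, 17 and 25) and, without female 25, 0.021 for Hbb-bs in the hippocampus and 0.024 for Hba-a1 and 0.035 for Alas2 in the hypothalamus. In the hypothalamus of females, the difference of mean log2 CPM behind the exact permutation test was 0.00888 for Hba-a1 and 0.00033 for Alas2, opposite in sign to the edgeR estimates. After removal of group means, r between hippocampus and hypothalamus became 0.0106 for Hba-a2 and 0.0134 for the share of Hba-a1, both near 0 throughout. The other alternatives kept each count of called members and the direction of each named value. Leaving out the libraries of male 12 (2 of which stand apart in the authors' mapping statistics) or the hypothalamus of female 19 (low RNA integrity per the study), both added after the data were seen, changed no call in the region comparisons. Over all genes the choice of test mattered in females, where edgeR called 2, 0 and 1 genes between network sizes in cortex, hippocampus and hypothalamus and DESeq2 called 74, 95 and 43. In males edgeR called 0 in each and DESeq2 2, 0 and 1. Between the sexes edgeR called 18, 19 and 22 and DESeq2 29, 31 and 40, and for the difference between sexes in the network contrast edgeR called 0 in each and DESeq2 30, 1 and 0. Depth did not limit the tested members, but Hba-a2 rested on too few counts to compare.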

Other observations

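Red cell precursor and neutrophil genes were high in a few libraries, of which some had much haemoglobin RNA and others did not. These libraries were chosen after their values were seen and are described without a test. The hippocampus of female 17, with a large network, had 6.21 CPM of Slc4a1 and 1.25 CPM of Hemgn, a nuclear protein of erythroid precursors, where the medians over 86 libraries were 0.349 and 0.0405. It also had 16.8 CPM of Ngp, a granule protein of immature neutrophils (median 0.543), and a sum of 110 CPM over the neutrophil list (median 16.9). Its summed globin level was the 9th of 29 in that region, at 307 CPM. Her cortex and hypothalamus had 0.251 and 0.147 CPM of Slc4a1. The hypothalamus of male 6, with a small network, had 3.05 CPM of Slc4a1 and 11.2 CPM of Ngp, against 0.909 and 1.26 in his cortex, and its globin sum of 543 CPM ranked 2nd of 28. Male 28, with a large network, had 2.35 CPM of Slc4a1 in the cortex and 1.87 in the hippocampus, with globin sums of 649 and 430 CPM that ranked 3rd and 4th of 29. The hypothalamus of female 4, with a small network, had 2.15 CPM of Slc4a1 and 3.25 of Ngp. Its globin sum of 226 CPM ranked 8th of 28. In the cortex of male 13, with a small network, Ngp was at 17.7 CPM and the neutrophil sum at 120.7 CPM, while his globin sum of 186 CPM ranked 24th of 29. The same library had 1.63 CPM of Slc4a1 and 0.470 of Hemgn. His hippocampus and hypothalamus had 0.0740 and 0.180 CPM of Ngp and 0.148 and 0.103 CPM of Slc4a1. Male 18, with a small network, had 15.8 CPM of Ngp in the cortex and 14.2 in the hippocampus, with globin sums of 533 and 403 CPM that ranked 9th and 5th of 29. His Slc4a1 in these regions was at 1.26 and 1.53 CPM. Over the animals of a region, the rho of the neutrophil sum with the globin sum was 0.164 in the cortex, 0.503 in the hippocampus and 0.261 in the hypothalamus.

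The mean share of Hbb-bt per animal was also compared with the mean level of every gene. Of the 10 genes with the largest absolute Spearman's rho over 29 animals, 3 were encoded by mitochondrial DNA (mt-Nd4l at 0.694, mt-Atp6 at 0.694 and mt-Nd3 at 0.675), and 4 were predicted genes named only by Gm numbers, among them Gm13341 at 0.722. Gm13339, Gm13340 and Gm13341 start close to each other on chromosome 2, so they are not separate places in the genome. None of the 10 genes lay on chromosome 7, where the beta-globin genes are. The share of Hbb-bt itself had rho of 0.475, 0.285 and 0.0197 with the summed globin CPM in cortex, hippocampus and hypothalamus. These are the extremes of 15128 genes, given as a description.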
